A study of Mus musculus with 6 samples.

Results

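Imprinted genes are expressed mainly or only from the copy inherited from one parent. They lie in clusters, and in most of them a control region that carries DNA methylation on one parental copy decides which copy is used, often through a long non-coding RNA that silences its neighbours in cis. Many encode regulators of fetal and placental growth, such as the growth factor Igf2 and its clearance receptor Igf2r. A list of 39 autosomal mouse imprinted genes was followed here, taken by name. Of these, 33 were measured by a probe set with a single gene name, out of 19936 genes measured that way. Snrpn, Ube3a and Gnas share their probe sets with other genes in the annotation used, and H19, Kcnq1ot1 and Zrsr1 have no probe set of that name in it, so these 6 were not analysed here.

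The 3 HA-Fbxl10 samples were RNA from Tet-off mouse embryonic fibroblasts (MEFs) that had received a plasmid with an HA-tagged Fbxl10 cDNA together with a hygromycin resistance plasmid and were selected as clones expressing it. The 3 control samples were RNA from the same Tet-off line without transfection. Tet-off cells carry a tetracycline-controlled transactivator, and both groups are described as stable lines derived from MEFs. Kdm2b is the current name of Fbxl10, and its product removes histone methyl groups and binds unmethylated CpG dinucleotides. There was no group with an empty plasmid, so Fbxl10 cannot be told apart from transfection, drug selection or clonal origin. The RNA samples are called independent, but separate clones or cultures are not named, and the p-values cover only the spread among these 6 arrays, which may be technical. Precision is limited by this number of arrays.

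Values are log2 expression values per probe set from Affymetrix arrays, and differences are HA-Fbxl10 minus control on that scale. Kdm2b itself had values of 9.77, 9.75 and 9.58 in HA-Fbxl10 cells and 7.38, 7.45 and 7.28 in control cells. Correlations between arrays over the probe sets with 1 gene were 0.997 to 0.998 within groups and 0.992 to 0.993 between them. Of 10 fibroblast markers 9 lay above the median of all genes, and their summed log2 level was 97.6 to 98.7 on HA-Fbxl10 arrays and 99.5 to 100.2 on control arrays, with Col3a1, Pdgfra and S100a4 lower and 0 higher in HA-Fbxl10 cells. Of 3 trophoblast markers measured, 0 lay above the lower quartile of all genes. Of 5 neural markers 2 lay above the median, with a summed level of 26.4 to 26.7 on HA-Fbxl10 arrays and 27.5 to 28.2 on control arrays, and Tubb3, Map2 and Nes were lower in HA-Fbxl10 cells. Of 5 endothelial and 5 fat markers 0 lay above the median. Kdr was the 1 endothelial marker that was higher in HA-Fbxl10 cells, against a list median difference of -0.08, and Fabp4 the 1 fat marker, with a list median of 0.04. In the epithelial, macrophage, skeletal muscle and pluripotency lists 0 genes passed the test. The part of these shifts in the values below was not tested, and fewer cells of a type and less RNA per cell cannot be told apart in such samples.

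Among the imprinted genes, 7 were higher and 2 were lower in HA-Fbxl10 cells, and the other 24 did not pass the test (limma, Benjamini-Hochberg adjusted p under 0.05 over all 19936 genes). Ndn fell far more than any other member, Mkrn3 and Igf2r rose most, and Impact, Peg12, Sgce, Peg10 and Zim1 rose by smaller amounts, while Blcap fell slightly. The same test called 21.1% of all genes, 10.5% as higher and 10.6% as lower (49.8% of the calls were higher, and 62.9% after array medians were subtracted), and it called 27.3% of the imprinted genes, so the share of changed members lay near the background. The groups did not overlap for 36% of all genes, and among the members they lay apart upward for 7 and downward for 6. The median difference was 0.04 over the 33 members and -0.00427 over all genes, and the median absolute difference was 0.10 and 0.11.

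**Figure D1:**
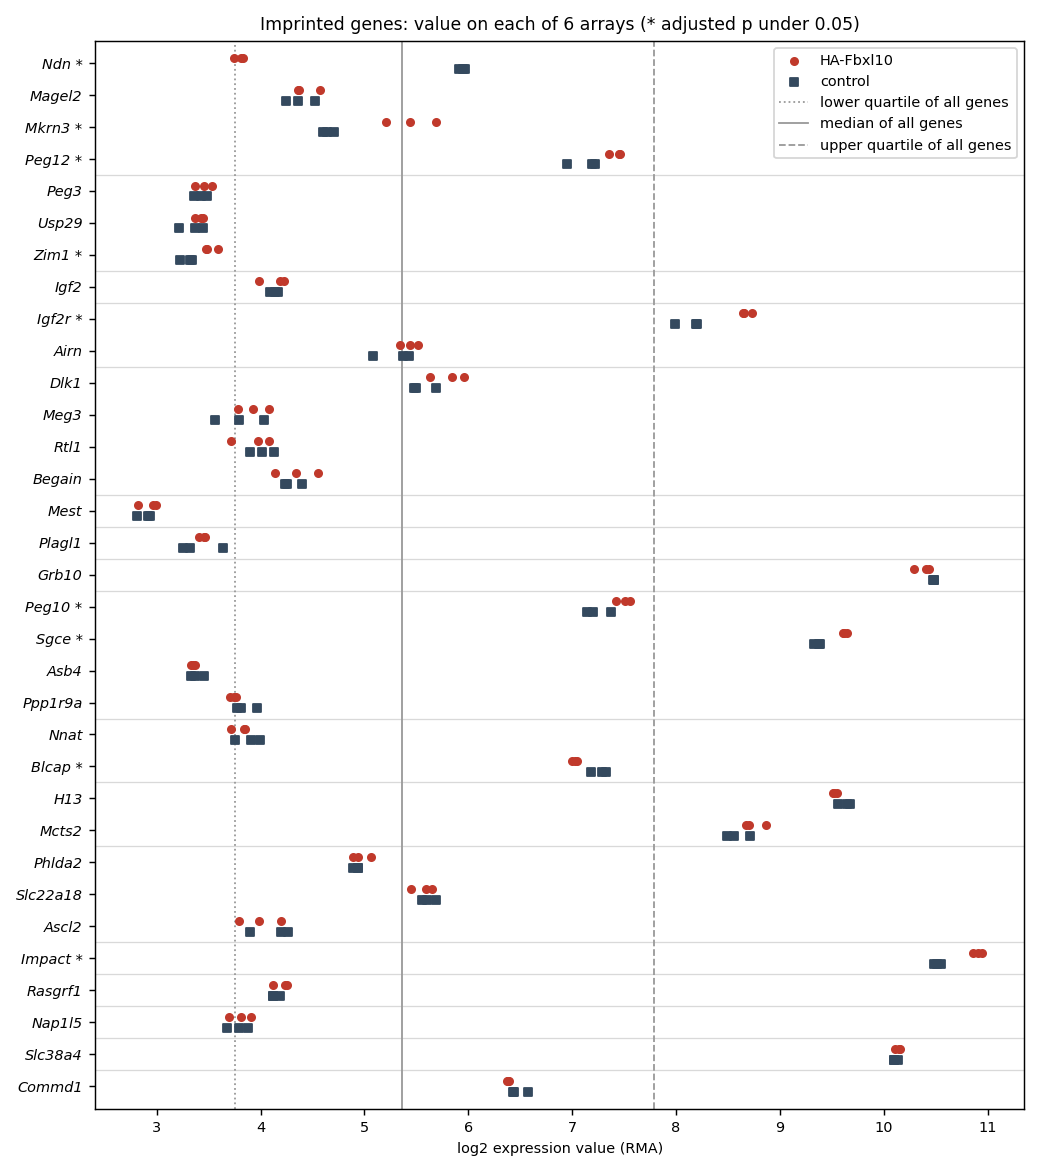
Log2 expression value (horizontal axis) of the 33 measured imprinted genes on each of 6 arrays, with HA-Fbxl10 arrays as red circles and control arrays as dark squares, clusters separated by grey lines and the quartiles of all genes as vertical lines. Ndn lies near the lower quartile of 3.75 on the HA-Fbxl10 arrays and above the median of 5.36 on the control arrays.

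The signal of most members was low. Over all 6 arrays, 6 members had a mean in the lowest quartile of genes (below 3.75), 14 in the second (3.75 to 5.36), 6 in the third and 7 in the highest (above 7.78). The table gives no detection calls, and in the lowest quartile the values do not tell signal from background. Levels of different genes depend on their probes and are placed only in these quartiles. Members in the highest quartile were Impact, Grb10, Slc38a4, H13, Sgce, Mcts2 and Igf2r. Of the 13 members above the median of all genes 46.2% passed the test, against 37% of all genes above it. Of the 20 at or below it 15% passed, namely Ndn, Mkrn3 and Zim1, against 5.21% of all such genes.

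The Prader-Willi/Angelman domain on chromosome 7 held the largest changes. Most of its genes are expressed from the paternal copy under 1 control region, and loss of the paternal copy of its human counterpart causes Prader-Willi syndrome. The annotated starts of Ndn, Magel2, Mkrn3 and Peg12 follow each other in this order on the chromosome, with Gm32061 as the only other measured gene within 600 kb of Ndn. Their promoter windows were taken from RefSeq on GRCm38.p6, from 250 bases before to 50 after the annotated start. They are shown because the product of Kdm2b binds unmethylated CpG dinucleotides, and CG is written in capitals. The letters do not show methylation, and binding was not measured. A link between the number of CG and the direction of change was not tested. The windows are chr7:62348027-62348326 and chr7:62376729-62377028 on the plus strand and chr7:62420104-62420403 and chr7:62464461-62464760 on the minus strand, each read 5′ to 3′ along the gene.
Ndn: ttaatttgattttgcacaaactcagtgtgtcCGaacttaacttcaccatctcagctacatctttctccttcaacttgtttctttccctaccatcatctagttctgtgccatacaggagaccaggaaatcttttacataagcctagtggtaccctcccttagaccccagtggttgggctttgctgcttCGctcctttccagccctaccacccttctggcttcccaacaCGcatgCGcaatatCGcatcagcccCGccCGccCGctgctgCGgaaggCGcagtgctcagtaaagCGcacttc
Magel2: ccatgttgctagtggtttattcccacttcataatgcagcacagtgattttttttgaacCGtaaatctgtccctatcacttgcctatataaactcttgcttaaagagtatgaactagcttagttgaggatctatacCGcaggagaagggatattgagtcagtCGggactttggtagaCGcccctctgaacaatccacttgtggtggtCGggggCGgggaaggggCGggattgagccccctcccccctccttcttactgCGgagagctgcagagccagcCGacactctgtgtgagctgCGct
Mkrn3: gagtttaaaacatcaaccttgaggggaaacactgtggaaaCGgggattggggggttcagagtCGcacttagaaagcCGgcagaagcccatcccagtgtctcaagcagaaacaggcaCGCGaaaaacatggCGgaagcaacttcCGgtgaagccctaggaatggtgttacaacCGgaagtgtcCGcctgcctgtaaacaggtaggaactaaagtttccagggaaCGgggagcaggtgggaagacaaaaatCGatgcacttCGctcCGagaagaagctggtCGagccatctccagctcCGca
Peg12: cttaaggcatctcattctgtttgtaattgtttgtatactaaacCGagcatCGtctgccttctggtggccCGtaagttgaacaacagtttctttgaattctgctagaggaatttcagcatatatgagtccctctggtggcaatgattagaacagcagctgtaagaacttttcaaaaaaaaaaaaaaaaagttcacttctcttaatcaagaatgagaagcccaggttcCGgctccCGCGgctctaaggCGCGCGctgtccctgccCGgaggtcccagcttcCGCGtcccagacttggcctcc
The window of Ndn holds 11 CG dinucleotides, that of Magel2 10, that of Mkrn3 15 and that of Peg12 12. Among all 32851 promoter windows, 41.4% hold at least 11 and 34.6% hold at least 15. The median was 7 over all windows. Over the 15614 measured genes with a window it was 16, taking the window with the most CG for each gene, and all 4 neighbours lay below that. The numbers of CG of these 4 neighbours lay close to each other. The letters GGGCGG, sought on both strands, occur 2 times in the window of Ndn, where the copies overlap, and 2 times in that of Magel2. They occur 0 times in those of Mkrn3 and Peg12. Of all windows 35.7% hold them, and of those of the measured genes 51.8%.

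Ndn encodes necdin, a MAGE family protein that restrains cell growth and is abundant in post-mitotic neurons. Its log2 values were 3.83, 3.81 and 3.74 in HA-Fbxl10 cells and 5.91, 5.95 and 5.97 in control cells. All 3 HA-Fbxl10 arrays lay far below all 3 control arrays, and the spread within each group was small (SD 0.05 in HA-Fbxl10 cells and 0.03 in control cells, n = 3 each). The difference was -2.15 ± 0.06 (SE), a 4.44-fold lower level, with a limma adjusted p of 1.53e-07. The HA-Fbxl10 values lay at the lower quartile of these arrays (3.77, 3.69 and 3.76), where signal and background are not told apart, so the true fold may be larger. The median difference of the 31 nearest expressed genes was 0.08, and the difference of Ndn was -2.23 after subtracting it.

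Mkrn3, a makorin-type RING finger gene whose human counterpart restrains the onset of puberty, moved the other way. Its log2 values were 5.20, 5.69 and 5.44 in HA-Fbxl10 cells and 4.64, 4.60 and 4.70 in control cells. The lowest HA-Fbxl10 array lay above the highest control array, and the HA-Fbxl10 samples varied more among themselves (SD 0.24, against 0.05 in control cells, n = 3 each). The rise was 0.79 ± 0.11 (SE), 1.73-fold, with a limma adjusted p of 0.000953. In control cells Mkrn3 lay in the second quartile of genes. Peg12, a Frat family gene of the Wnt pathway, had log2 values of 7.46, 7.45 and 7.36 in HA-Fbxl10 cells and 7.22, 7.20 and 6.95 in control cells. The groups lay apart, and the difference of 0.30 ± 0.08 (SE) passed the test (limma adjusted p = 0.0315). That call ended without any single HA-Fbxl10 array, without control replicate 3, or after subtracting the median of neighbouring genes, with adjusted p of 0.0555 to 0.102.

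Magel2, a MAGE family gene that takes part in endosomal protein recycling, lies between Ndn and Mkrn3 and did not pass the test. Its log2 values were 4.57, 4.37 and 4.37 in HA-Fbxl10 cells and 4.53, 4.37 and 4.24 in control cells, and the groups overlapped. The 95% interval of its difference ran from -0.15 to 0.26, so a change of the size of that of Ndn or Mkrn3 lay outside it. Magel2 was in the second quartile of genes in both groups. Without detection calls, the values do not tell whether a fall as large as that of Ndn could be seen at this level. Paternally expressed neighbours of 1 domain thus had a fall, a rise and an interval around 0 in the same samples.

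**Figure D2:**
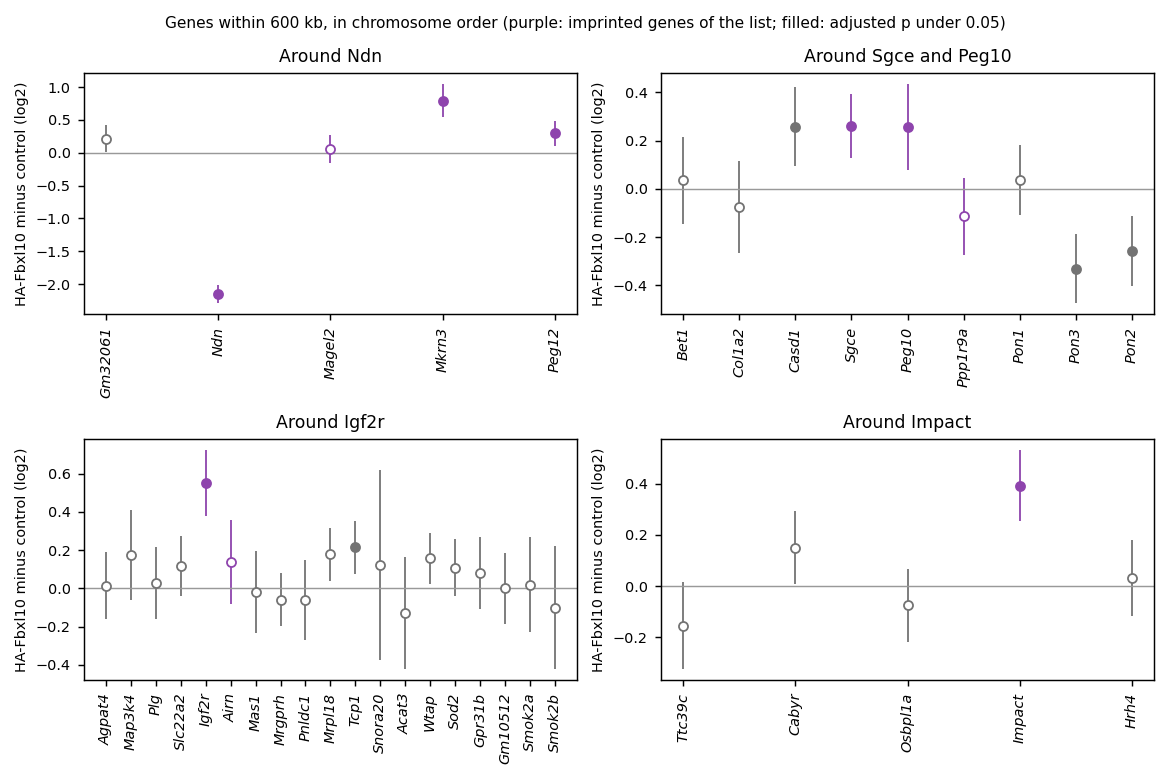
Difference between HA-Fbxl10 and control (log2, vertical axis, points with 95% intervals) of all measured genes within 600 kb of the called members around Ndn, Sgce and Peg10, Igf2r, and Impact, in chromosome order by RefSeq positions. Members of the list are purple and others grey, and filled points passed an adjusted p of 0.05. Ndn at -2.15 and Mkrn3 at 0.79 stand in 1 domain, and Igf2r at 0.55 stands above its neighbours.

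The receptor gene Igf2r and the antisense RNA Airn form a cluster on chromosome 17. Igf2r encodes the cation-independent mannose 6-phosphate receptor, which carries lysosomal enzymes and removes Igf2 from the cell surface for degradation. Airn starts inside Igf2r, is transcribed from the paternal copy and silences Igf2r there. The 2 promoter windows are shown because their CpG content differs, with chr17:12769657-12769956 on the minus strand and chr17:12741061-12741360 on the plus strand (RefSeq, GRCm38.p6), 5′ to 3′ with CG in capitals.
Igf2r: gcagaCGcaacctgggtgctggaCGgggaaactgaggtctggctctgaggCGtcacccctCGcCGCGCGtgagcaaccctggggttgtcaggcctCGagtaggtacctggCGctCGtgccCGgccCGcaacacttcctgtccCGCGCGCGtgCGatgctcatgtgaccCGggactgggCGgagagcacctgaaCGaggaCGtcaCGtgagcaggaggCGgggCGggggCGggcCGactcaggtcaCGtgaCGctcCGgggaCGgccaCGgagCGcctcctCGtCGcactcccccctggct
Airn: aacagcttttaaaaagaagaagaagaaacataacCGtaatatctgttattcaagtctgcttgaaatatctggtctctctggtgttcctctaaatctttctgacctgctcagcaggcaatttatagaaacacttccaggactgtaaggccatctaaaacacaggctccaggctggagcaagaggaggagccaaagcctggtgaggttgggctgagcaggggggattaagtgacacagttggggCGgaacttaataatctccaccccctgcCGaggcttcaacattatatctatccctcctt
The window of Igf2r holds 34 CG, a number that 7.7% of all windows reach. That of Airn holds 3, a number that 76.7% reach. Each window ends 50 bases after the annotated start, so CG farther along either transcript is not counted. Over the 29 members with a window in the table the median was 17 CG, taking the window with the most CG for each gene, and over 15614 measured genes it was 16. It was 16 for the 6 called members with a window and 17 for the 23 others. The called members Sgce, Peg10 and Impact have no window there and are not in that median.

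Igf2r had log2 values of 8.73, 8.66 and 8.65 in HA-Fbxl10 cells and 7.99, 8.19 and 8.21 in control cells. The groups lay well apart in the highest quartile of genes, and the rise of 0.55 ± 0.08 (SE), 1.46-fold, had a limma adjusted p of 0.000925. The 31 nearest expressed genes had a median difference of 0.11. Of 19 genes measured within 600 kb, Igf2r included, 8 lay above the median of all genes. The test called 2 of the 19, against 21.1% of all genes. Besides Igf2r, this was the chaperonin subunit gene Tcp1, with a rise of 0.21 ± 0.06. After subtracting the neighbours' median the difference of Igf2r was 0.44. Airn did not pass the test. Its log2 values were 5.34, 5.51 and 5.44 in HA-Fbxl10 cells and 5.37, 5.08 and 5.43 in control cells, with overlapping groups and a 95% interval of the difference from -0.08 to 0.36. The transcripts overlap on opposite strands, and the sources used here do not give the strand that the probes read. Igf2, the ligand that Igf2r clears, lay in the second quartile of genes. On the log2 scale it had 4.22, 3.99 and 4.19 in HA-Fbxl10 cells and 4.09, 4.17 and 4.14 in control cells, which overlap, and its 95% interval ran from -0.17 to 0.17.

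The Peg10/Sgce cluster on chromosome 6 held a pair of rising neighbours. Sgce, which encodes epsilon-sarcoglycan, a membrane protein of the dystrophin-associated type, and Peg10, a retrotransposon-derived gene needed for placental development in mice, lie next to each other and are transcribed in opposite directions from the paternal copy. Sgce had log2 values of 9.61, 9.61 and 9.65 in HA-Fbxl10 cells and 9.37, 9.33 and 9.38 in control cells. The difference of 0.26 ± 0.06 (SE) was small, but the groups lay apart and it passed the test (limma adjusted p = 0.0123). Peg10 had log2 values of 7.42, 7.51 and 7.56 in HA-Fbxl10 cells and 7.14, 7.20 and 7.38 in control cells. Its difference of 0.26 ± 0.08 (SE) was as large as that of Sgce, with a limma adjusted p of 0.0458. The call of Peg10 ended without any single array other than control replicate 3 (adjusted p of 0.061 to 0.156), while that of Sgce held in each of these fits. The median difference of their 31 nearest expressed genes was -0.0034, though Casd1, on the far side of Sgce, also rose by 0.26 ± 0.07 (limma adjusted p = 0.0327).

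The maternally expressed members of this cluster did not pass the test. The neurabin gene Ppp1r9a averaged 3.74 ± 0.03 in HA-Fbxl10 cells and 3.85 ± 0.10 in control cells (log2 value, SD, n = 3 each), and Asb4, a SOCS-box gene of ubiquitin ligases, averaged 3.35 ± 0.02 and 3.38 ± 0.06 in the same groups. Both lay at or below the lower quartile in HA-Fbxl10 cells. Between Ppp1r9a and Asb4 the paraoxonase genes Pon3 and Pon2, which are reported as imprinted in some tissues, fell by 0.33 and 0.26 on the log2 scale (limma adjusted p = 0.00518 and 0.0191). The call of Pon2 ended without HA-Fbxl10 replicate 1 or 2, without control replicate 1 or 3, or when array medians were subtracted (adjusted p of 0.0514 to 0.0868).

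Impact, a single paternally expressed gene on chromosome 18, encodes an inhibitor of Gcn2 activation, the kinase that senses amino acid shortage. Impact measured 10.91, 10.95 and 10.86 in HA-Fbxl10 cells and 10.55, 10.51 and 10.48 in control cells (log2). The groups lay well apart, with SDs of 0.04 in HA-Fbxl10 cells and 0.03 in control cells (n = 3 each). The rise was 0.39 ± 0.06 (SE), 1.31-fold, with a limma adjusted p of 0.00179, against a median of 0.06 over its 31 nearest expressed genes. None of the 4 other genes measured within 600 kb passed the test (limma, adjusted p of 0.134 to 0.815, against 21.1% of all genes). Of these, Cabyr and Hrh4 lay at or below the median of all genes, where 5.21% of genes were called. Beyond this window Zfp521, at 732.3 kb, rose by 0.89 and Ankrd29, at -702.3 kb, fell by 0.31.

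Blcap, reported as maternally expressed in brain and known as a growth-suppressing gene lost in bladder cancer, was the other member that fell. Blcap measured 7.04, 7.03 and 7.00 in HA-Fbxl10 cells and 7.18, 7.32 and 7.28 in control cells (log2). The groups lay apart by little, with a difference of -0.24 ± 0.06 (SE) and a limma adjusted p of 0.0270. The call ended without any single array other than control replicate 1, under quantile normalisation and when array medians were subtracted (adjusted p of 0.0531 to 0.117). Nnat, the paternally expressed proteolipid gene neuronatin inside an intron of Blcap, averaged 3.80 ± 0.08 in HA-Fbxl10 cells and 3.89 ± 0.12 in control cells (SD, n = 3 each) and did not pass.

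The Peg3 domain on chromosome 7 was dim in both groups. Zim1, a maternally expressed zinc finger gene, passed the test with log2 values of 3.49, 3.59 and 3.48 in HA-Fbxl10 cells and 3.32, 3.23 and 3.34 in control cells. These values were all in the lowest quartile, and the call (difference 0.22 ± 0.07, SE, limma adjusted p = 0.0390) ended without any single array, with adjusted p of 0.0505 to 0.124. Peg3, a paternally expressed zinc finger gene involved in growth and maternal behaviour in mice, had log2 values of 3.53, 3.37 and 3.45 in HA-Fbxl10 cells and 3.43, 3.36 and 3.49 in control cells. Usp29, a ubiquitin protease gene that starts beside Peg3, averaged 3.41 ± 0.04 in HA-Fbxl10 cells and 3.34 ± 0.12 in control cells (SD, n = 3 each). Neither passed, and both lay in the lowest quartile of genes.

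In the Dlk1/Meg3 cluster on chromosome 12, 0 of 4 members passed the test (limma, against 21.1% of all genes). Of these members 3 lay in the second quartile. The test called 5.21% of genes at or below the median of all genes and 37% of those above it. In the cluster 1 gene had an unadjusted p under 0.05 (limma), as did 6245 of all 19936 genes. That gene was Dlk1, a membrane protein gene of the Notch ligand type that restrains fat cell formation. Its log2 values were 5.96, 5.63 and 5.84 in HA-Fbxl10 cells and 5.48, 5.69 and 5.49 in control cells, and 1 control array lay above the lowest HA-Fbxl10 array. The difference of 0.25 ± 0.10 (SE) had a limma adjusted p of 0.103, but it passed under quantile normalisation (0.0308), after subtracting array medians (0.0243) and without HA-Fbxl10 replicate 2 (0.0339). Over its alternatives the adjusted p spanned 0.0243 to 0.304. The maternally expressed non-coding RNA Meg3 averaged 3.93 ± 0.15 in HA-Fbxl10 cells and 3.80 ± 0.24 in control cells. Rtl1, a retrotransposon-derived gene of the placenta, averaged 3.92 ± 0.19 and Begain, a synaptic protein gene, 4.34 ± 0.21 in HA-Fbxl10 cells, against 4.01 ± 0.12 and 4.30 ± 0.09 in control cells (all SD, n = 3).

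Several members above the median of all genes did not pass the test. Slc38a4, an amino acid transporter gene, had log2 values of 10.10, 10.15 and 10.15 in HA-Fbxl10 cells and 10.10, 10.10 and 10.14 in control cells, and the 95% interval of its difference ran from -0.11 to 0.16. Grb10, an adaptor gene that dampens insulin and Igf receptor signalling, had 10.41, 10.44 and 10.29 in HA-Fbxl10 cells and 10.48, 10.49 and 10.48 in control cells. Its arrays lay apart, but the difference did not pass the test (limma adjusted p = 0.328, 95% interval -0.25 to 0.04). H13, the signal peptide peptidase gene, had 9.55, 9.52 and 9.51 in HA-Fbxl10 cells and 9.67, 9.56 and 9.65 in control cells, and Mcts2, a retrogene inside its intron expressed from the paternal copy, had 8.87, 8.68 and 8.70 in HA-Fbxl10 cells and 8.71, 8.49 and 8.55 in control cells. Neither of these passed, with 95% intervals of -0.24 to 0.04 for H13, whose arrays lay apart, and -0.02 to 0.35 for Mcts2. Commd1, a gene of copper handling and NF-kappaB control, is reported as maternally expressed in brain. It had 6.37, 6.38 and 6.40 in HA-Fbxl10 cells and 6.57, 6.43 and 6.45 in control cells. The arrays of Commd1 also lay apart, and it did not pass either (95% interval -0.25 to 0.05).

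The Kcnq1ot1 cluster lies on chromosome 7, and its members are reported as silenced on the paternal copy by that RNA in some tissues. Among its members 0 of 3 passed (limma, against 21.1% of all genes). Of these 3 members 2 lay in the second quartile, and 5.21% of genes at or below the median of all genes were called. None had an unadjusted p under 0.05 (limma), against 6245 of all 19936 genes. Slc22a18, an organic cation transporter gene, had log2 values of 5.65, 5.44 and 5.59 in HA-Fbxl10 cells and 5.60, 5.69 and 5.56 in control cells. Phlda2, which limits placental growth in mice, averaged 4.96 ± 0.09 in HA-Fbxl10 cells and 4.92 ± 0.03 in control cells. Ascl2, a transcription factor gene of the trophoblast, averaged 3.99 ± 0.20 and 4.12 ± 0.20 in these groups (SD, n = 3 each). The groups overlapped for all 3 genes.

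The remaining single genes were dim and overlapped between the groups. Mest, which encodes a protein of the hydrolase fold and is abundant in embryonic mesoderm, had log2 values of 2.97, 2.99 and 2.82 in HA-Fbxl10 cells and 2.92, 2.94 and 2.82 in control cells, and Plagl1, a zinc finger transcription factor gene, had 3.41, 3.47 and 3.46 in HA-Fbxl10 cells and 3.64, 3.32 and 3.26 in control cells. Both lay below the lower quartile of genes. Rasgrf1, a Ras exchange factor gene, had 4.24, 4.12 and 4.25 in HA-Fbxl10 cells and 4.12, 4.19 and 4.12 in control cells, and Nap1l5, a gene of the nucleosome assembly protein family, had 3.91, 3.70 and 3.82 in HA-Fbxl10 cells and 3.80, 3.88 and 3.68 in control cells. Over all 24 members without a call the differences ran from -0.13 to 0.25, and for 18 of them the 95% interval lay within 0.3 of 0 on the log2 scale.

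**Figure D3:**
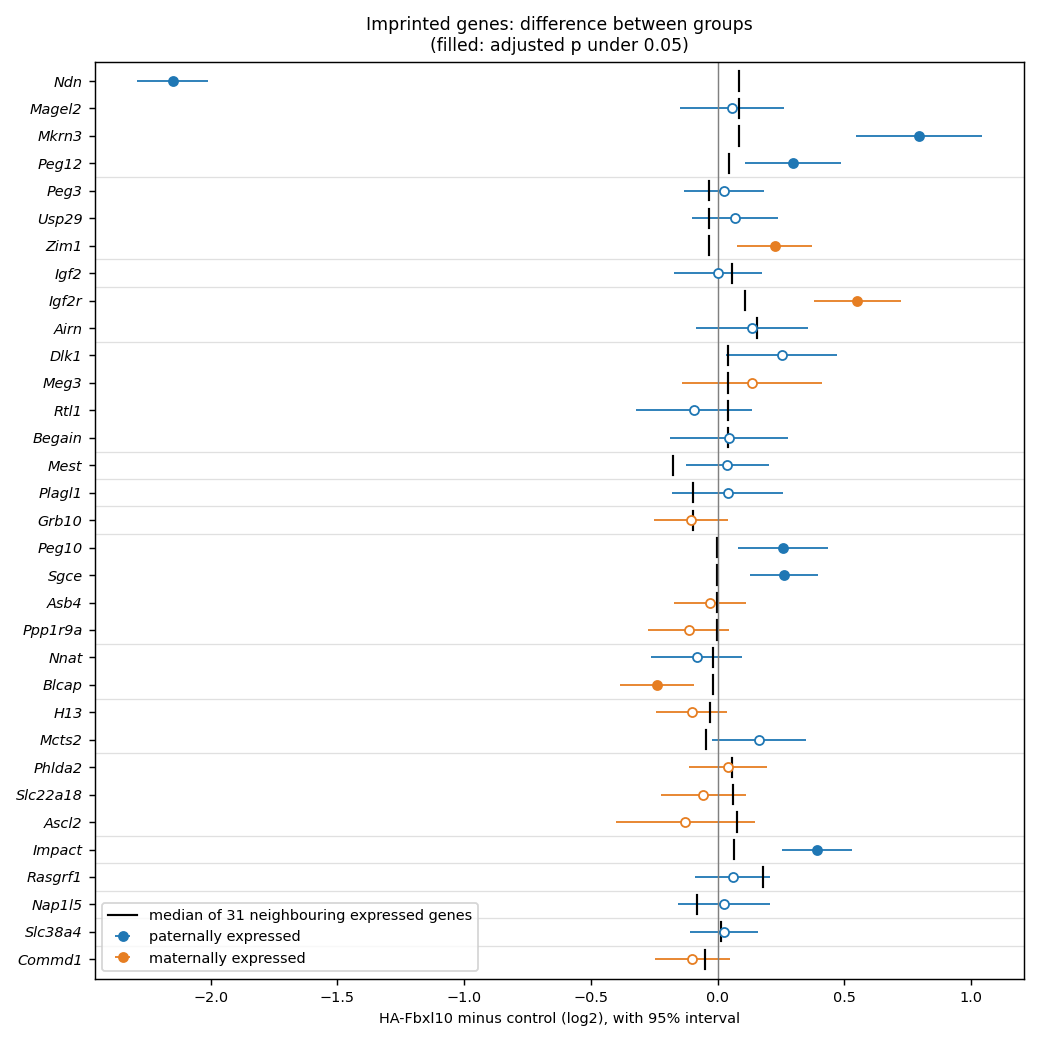
Difference between HA-Fbxl10 and control (log2, horizontal axis) of the 33 measured imprinted genes with 95% intervals, coloured by the parental copy expressed, filled where the adjusted p was under 0.05, with a black tick at the median of the 31 nearest expressed genes. Ndn at -2.15 lies far to the left, and most intervals of the other members include 0.

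By the parental copy that is known to be expressed, the classes lay slightly to either side of 0. The arrays do not separate the parental copies. For some members, among them Blcap, H13, Commd1, Grb10, Ppp1r9a and Begain, the known imprint is limited to some tissues or transcripts. Of 21 paternally expressed members 17 had a positive difference, with 5 called higher and 1 lower (28.6%, against 21.1% of all genes) and a median of 0.06. That count was 13 of 21 without HA-Fbxl10 replicate 1, 14 after subtracting the neighbours' median and 15 without control replicate 3, and it reached 19 without HA-Fbxl10 replicate 2. Of 12 maternally expressed members 4 had a positive difference, with 2 called higher and 1 lower (25%) and a median of -0.08, and the count was 3 to 5 of 12 over the alternatives that kept all 12. Over all genes 9771 of 19936 differences were positive, with a median of -0.00427.

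Array by array, the median of the paternally expressed members minus their control means was 0.11, 0.04 and 0.06 on the HA-Fbxl10 arrays and 0.03, -0.0041 and -0.03 on the control arrays. For the maternally expressed members it was -0.0048, -0.07 and -0.07 on the HA-Fbxl10 arrays and 0.0060, 0.0098 and -0.02 on the control arrays, so HA-Fbxl10 replicate 1 lay between the values of control replicates 1 and 3. Neighbouring members share their domain, and these medians are a description with no test. Both medians moved by more than 1.5 times with some settings. The paternal median was 0.112 after subtracting array medians, 0.15 without the dimmest genes and 0.101 after subtracting the neighbours' median. It was 0.0897 without HA-Fbxl10 replicate 2, 0.0905 without HA-Fbxl10 replicate 3, 0.0966 without control replicate 1 and 0.0372 without control replicate 3. The maternal median was -0.0423 under quantile normalisation, -0.0233 after subtracting array medians and -0.0384 after subtracting the neighbours' median. It was -0.0335 without HA-Fbxl10 replicate 2 and -0.0482 without control replicate 2.

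**Figure D4:**
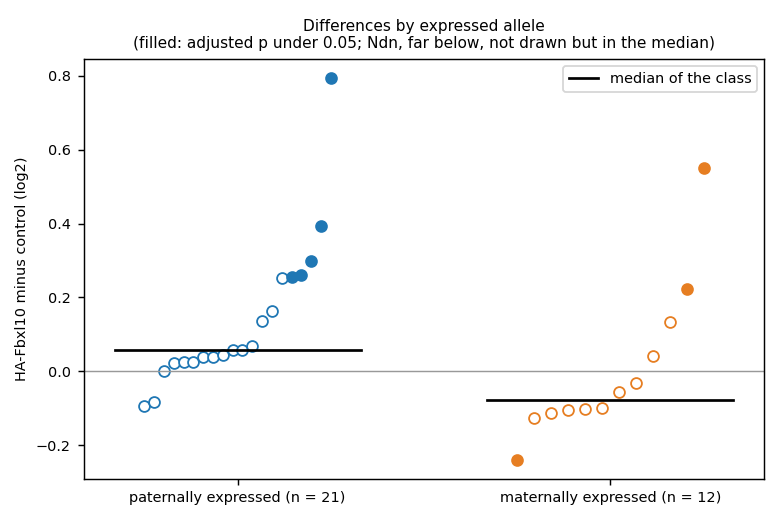
Difference between HA-Fbxl10 and control (log2, vertical axis) of the paternally and maternally expressed members, 1 point per gene from low to high, filled where the adjusted p was under 0.05, with the class median as a black bar. Ndn at -2.15 is outside the axis and counts in the paternal median of 0.06, while the maternal median is -0.08.

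Of 43 further names of genes reported as imprinted in some mouse tissue or lying in imprinted domains, among them Frat3, an older name of Peg12, 35 were measured, 3 rose and 7 fell (28.6%, against 21.1% of all genes), with a median difference of 0.0036. Sfmbt2, a Polycomb-type gene imprinted in the placenta, fell by 0.53 ± 0.07 (SE), and Herc3, the host gene of Nap1l5, fell by 0.40 ± 0.09 on the log2 scale (limma adjusted p = 0.00049 and 0.0130). Copg2, which overlaps the 3′ end of Mest, fell by 0.27 ± 0.06, Trappc9 by 0.30 ± 0.07 and Zfp777 by 0.26 ± 0.07. Ampd3 rose by 0.46 ± 0.08, Gab1, a docking protein gene of receptor tyrosine kinases, by 0.42 ± 0.09, and Nap1l4, next to Phlda2, by 0.22 ± 0.06. Of these 10, with Pon2 and Pon3, the calls of Sfmbt2, Ampd3 and Pon3 held in all fits at an adjusted p of 0.05. Subtracting the neighbours' median ended those of Copg2 (adjusted p = 0.235), Trappc9 (0.106), Gab1 (0.135), Zfp777 and Nap1l4, and leaving out HA-Fbxl10 replicate 1 ended that of Herc3 (0.0517). Copg2 and Zfp777 also lost their calls when array medians were subtracted (0.0648 and 0.107), Zfp777 without HA-Fbxl10 replicate 1 or control replicate 1 or 2 (0.0624 to 0.140 over its lost calls), and Nap1l4 under quantile normalisation or without any single array (0.0509 to 0.0936 over its lost calls). The growth inhibitor gene Cdkn1c of the Kcnq1ot1 domain averaged 4.93 in HA-Fbxl10 cells and 5.07 in control cells and did not pass.

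Of 27 measured genes that set, protect or read imprints, 6 rose and 1 fell (25.9%, against 21.1% of all genes), with a median difference of 0.01. Zfp57, a KRAB zinc finger gene whose product binds methylated control regions and holds their methylation in the mouse embryo, had log2 means of 8.99 in HA-Fbxl10 cells and 8.47 in control cells, a rise of 0.52 ± 0.07 (SE, limma adjusted p = 0.000724). Smchd1, a chromatin protein gene needed for silencing at some imprinted clusters, rose by 0.36 ± 0.07, the Polycomb gene Eed by 0.31 ± 0.07, the hemimethylated DNA reader gene Uhrf1 by 0.29 ± 0.08, Arid4a by 0.41 ± 0.11 and the demethylase gene Kdm1b by 0.34 ± 0.09. Tet3, a gene of 5-methylcytosine oxidation, fell by 0.37 ± 0.07, and its call was lost with a difference of -0.00194 after subtracting the neighbours' median. Quantile normalisation ended the call of Uhrf1 (0.0555). Subtracting the neighbours' median also ended the calls of Smchd1 (adjusted p = 0.348), Kdm1b (0.276) and Arid4a. Uhrf1, Arid4a and Kdm1b also lost their calls without HA-Fbxl10 replicate 2 or 3 or control replicate 1 or 2, and Uhrf1 and Kdm1b without HA-Fbxl10 replicate 1 (adjusted p of 0.0518 to 0.276 over their lost calls). Eed lost its call when probe sets were averaged (0.110), and the call of Zfp57 held in all fits at an adjusted p of 0.05. The maintenance methyltransferase gene Dnmt1 averaged 9.67 in HA-Fbxl10 cells and 9.48 in control cells, and Trim28, the partner of Zfp57, 9.87 and 9.88. Neither passed the test.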

How the data were processed

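RNA of 6 samples, 300 ng per array per the labels' protocols, was hybridised to Affymetrix arrays. The values deposited by the authors are on the log2 scale, and the submitters' processing notes name RMA for them. RMA usually includes quantile normalisation, which hides a change that most genes share. The sources used here give neither its settings nor array batches or scan dates.

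The platform annotation gives 1 gene for 21789 of 35556 probe sets, several for 1621 and none for 12146. Symbols were updated to RefSeq GRCm38.p6 (21698 by Entrez identifier, 3 by accession, 88 kept), which served for names and gene order, since the build of the values is not given. The probe set with the highest mean was used per gene, leaving 19936 genes. Each measured member has 1 such probe set. The comparison used limma 3.58.1 under R 4.3.3 (lmFit, eBayes, two-sided, adjusted p over all genes, threshold 0.05). The fit was tested on simulated data with independent noise and far fewer changed genes than were called here. That test does not cover spread that arrays of a group may share. Pearson correlations of deviations from group means between arrays with the same replicate number were 0.09, -0.28 and -0.09. Between arrays with other numbers they were -0.22 to 0.28. With 3 arrays per group these values cannot settle whether the numbers pair samples, and the main fit used no block.

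The members, the lists and the tests were chosen with earlier results of these data known. Named genes were all members, and of the other lists those past the threshold. Cdkn1c, Dnmt1 and Trim28 were named after their values were seen, as were other genes within 600 kb. Expressed neighbours, 3 on each side of a called member, could also be named. Alternatives were quantile normalisation, subtraction of array medians, a filter that removed the dimmest 30% of genes, the mean over a gene's probe sets, all probe sets tested singly, a robust variance trend, a block for the replicate number, each array omitted in turn, a threshold of 0.01, and subtracting the median difference of the 31 nearest expressed genes. Expressed means above the median of all genes. Parental expression of each member is general knowledge, not from these files.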

Additional observations from a re-analysis of the deposited data

How the results depend on the processing

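The calls of Ndn, Mkrn3, Igf2r and Impact held in all alternatives, that of Sgce in all but the stricter threshold, and those of Peg12, Peg10, Zim1 and Blcap were lost in several. All genes called numbered 4208, and 2536 at an adjusted p of 0.01, where 3 members were higher (2 of them paternally and 1 maternally expressed) and 1 lower (0 maternal). Members called higher were 4 to 5 and lower 1 to 2 without single arrays, 1 lower (0 maternal) under quantile normalisation, array medians and the replicate block. The block gave 3397 genes in all, 5 members higher (1 maternal) and 1 lower, and ended the calls of Peg10 (adjusted p = 0.0507), Zim1 (0.101) and Blcap (0.0702) among members, and of Nap1l4 (0.0728), Zfp777 (0.0796), Uhrf1 (0.0525) and Kdm1b (0.0756) in the other lists. Maternally expressed members called higher were 1, not 2, without the dimmest genes, with the robust variance trend and without any single array, and called lower 0 to 1. Paternally expressed members called higher were 3 to 4 without single arrays. Subtracting array medians made 2650 of the calls higher and 1560 lower (62.9% higher, against 49.8%), and it gave medians of 0.0936 over all members, 0.112 over paternal and -0.0233 over maternal members. The paternal median was 0.15 without the dimmest genes, 0.101 with neighbours subtracted and 0.0372 to 0.0966 without single arrays. The maternal median was -0.0423 under quantile normalisation, -0.0384 with neighbours subtracted and -0.0944 to -0.0335 without single arrays, and the median of all members was 0.00338 to 0.0729. Other imprinted genes called lower were 4 with array medians, 2 at 0.01 and 4 to 7 without single arrays. Imprinting machinery genes called higher were 2 at 0.01 and 3 to 6 without single arrays, and called lower 3 under quantile normalisation and the robust trend, 2 without the dimmest genes and 0 with neighbours subtracted. Among 23 members without a call, Dlk1 aside, 1 to 5 changed sign under quantile normalisation, array medians, neighbours subtracted or single arrays left out, apart from control replicate 1, and 13 were tested when the dimmest genes were left out. Zim1 was not. Causes of these shifts were not tested beyond what each setting changes. Members in the lowest quartile of genes had signal that these files do not tell from background, which limits what can be seen of them.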

Other observations

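Expressed genes next to the called members differed in both directions. The test called 37% of all genes above the median, the level that these neighbours had to reach. Mainly neighbours that passed are named here, so they are no count of calls near imprinted genes. Qk, an RNA-binding protein gene and the third expressed gene before Igf2r, rose by 0.52 ± 0.07 (SE, limma adjusted p = 0.00107), close to the rise of Igf2r. The start of Qk lay at -2475.9 kb from that of Igf2r. Zfp521, a zinc finger gene and the next expressed gene after Impact, had log2 means of 7.23 in HA-Fbxl10 cells and 6.33 in control cells and rose by 0.89 ± 0.07 (limma adjusted p = 4.55e-05), more than Impact. Ankrd29, the third expressed gene before Impact, fell by 0.31 ± 0.09 (limma adjusted p = 0.0464). Zfp521 lay at 732.3 kb and Ankrd29 at -702.3 kb from the start of Impact. The phosphatase-family gene Mtmr10, beyond Peg12 and at 1939.4 kb from Ndn, rose by 0.40 ± 0.08 (limma adjusted p = 0.00501). Atp10a, reported as imprinted in some tissues, lay at -3692.1 kb from Ndn. It averaged 6.98 in HA-Fbxl10 cells and 6.80 in control cells and did not pass (limma adjusted p = 0.195). Around Blcap, Rpn2, a subunit gene of the oligosaccharyltransferase, rose by 0.31 ± 0.06 and Ctnnbl1 by 0.21 ± 0.06 (limma adjusted p = 0.00461 and 0.0407). Among 6 expressed neighbours of Zim1, 0 passed (limma adjusted p of 0.0762 to 0.885).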
